A study of Mus musculus with 6 samples.

Results

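The replication-dependent histone genes encode the histones that are made in bulk while DNA is copied. Genes were selected by symbol: a member was any protein-coding gene of the count table whose GRCm38-era mouse symbol starts with Hist1h, Hist2h, Hist3h or Hist4h. This gave 67 members among the 55401 genes of the table, namely 6 of the linker class H1, 18 of H2A, 18 of H2B, 12 of H3 and 13 of H4. The family itself was chosen on earlier results of the same WT against 5C comparison, so the differences between genotypes below are descriptions of these libraries and support nothing beyond them.

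RNA was taken from lysates of whole mouse embryos at E10.5 (mid-gestation), on a C57BL/6J background. The Mir483 5C embryos carried a tandem array of extra Mir483 copies at the endogenous Igf2 locus, and the WT embryos were their littermates. Each genotype had 3 libraries, and each library was a pool of 2 embryos described as male. The 5C line rests on 1 targeted allele, its expression follows the Igf2 locus, and 5C embryos arrest in development, so a direct effect of Mir483 and a general effect of the arrest cannot be told apart in these samples. In a whole-embryo sample, fewer cells of a type and less RNA per cell cannot be told apart either.

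DNA is wrapped around an octamer of the core histones H2A, H2B, H3 and H4, and H1 binds the linker between octamers. Cycling cells make these proteins in S phase from clustered, intron-poor genes, and in animals the mRNAs of this family typically end in a conserved stem-loop in place of a poly(A) tail. The stem-loop is bound by SLBP, the U7 snRNP directs cleavage of the precursor just after it, and it later serves to degrade the mRNA when replication stops. Some members are also transcribed past the stem-loop to a polyadenylation signal. The libraries were made with a kit that selects poly(A) RNA, so the counts are of histone RNA that passed that selection and need not follow the total histone mRNA of the embryo.

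The members lie in 5 places of the genome (GRCm38, from GENCODE models). The main cluster on chromosome 13 holds 23 members between 21715763 and 22043676 and 31 members between 23531050 and 23934851. Chromosome 3 holds 10 members between 96219865 and 96270132, chromosome 11 holds 2, and Hist4h4 stands alone on chromosome 6.

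A stem-loop was found after the stop codon in the models of 44 members, at 21 to 58 bases from the stop with a median of 31. The sequences are shown because they are the shared end of the family and because they separate H4 from the other classes. Each is given 5′ to 3′ on the strand of its gene (GRCm38, GENCODE transcripts), with the 16 bases of the stem-loop in capitals and its flanks in lower case.
Hist1h2ab (H2A, chr13:23751567-23751592, plus strand): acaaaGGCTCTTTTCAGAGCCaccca
Hist1h1c (H1, chr13:23739507-23739532, plus strand): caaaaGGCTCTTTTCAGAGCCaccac
Hist1h2bb (H2B, chr13:23747198-23747223, plus strand): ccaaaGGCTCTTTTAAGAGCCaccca
Hist1h3e (H3, chr13:23561898-23561923, minus strand): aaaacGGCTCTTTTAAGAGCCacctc
Hist1h4c (H4, chr13:23698084-23698109, minus strand): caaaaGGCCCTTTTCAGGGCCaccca
Hist4h4 (H4, chr6:136803993-136804018, minus strand): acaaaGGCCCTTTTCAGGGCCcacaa
Hist2h4 (H4, chr3:96262934-96262959, minus strand): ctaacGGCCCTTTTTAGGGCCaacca
Hist1h4j (H4, chr13:21735432-21735457, plus strand): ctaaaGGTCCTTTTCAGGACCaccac
Positions are counted from 1 at the 5′ end of the stem. The most common form stood in 26 members, none of them H4. Against that form, all 11 H4 members with a match carried the paired changes T4C and A13G, and 0 of the 33 other members with a match carried T4C. Hist1h4j and Hist1h4b carried C3T and G14A in addition. C10A in the loop marked 6 members outside H4, among them Hist1h2bb and Hist1h3e, and C10T marked Hist1h4i and Hist2h4 within H4 and Hist2h2ac outside it. In 22 of the 44 members the model ran over 150 bases past the stem-loop, and in 19 of the 67 members the letters AATAAA were present after the stop codon. Another 13 models end at the stop codon and could show no stem-loop.

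Total counts ranged from 6357343 (WT replicate 3) to 19151368 (WT replicate 1) per library. Mir483, the gene the edit multiplies, was counted at 11, 5 and 2 reads in the WT libraries and at 85, 51 and 36 reads in the 5C libraries, so the labels hold for the edit. WT replicate 1 stood apart from the other libraries on the main axis of variation, and the summed level of 8 yolk sac endoderm markers was 6040 CPM in it (CPM, counts per 1000000 of the library total scaled by the TMM method), 1170 CPM in 5C replicate 3 and 119 to 425 CPM in the other 4 libraries. The Y-linked gene Ddx3y was at 0.944 CPM in WT replicate 2 and at 0 counts in 5C replicate 2, against 41.6 to 55.9 CPM in the other libraries, which goes against the description of these 2 pools as male. Class medians and counts are also given without some of these libraries.

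The 67 members took 1.12 to 1.23% of all counts in each library. Their summed level was 12402, 11940 and 11491 CPM in the WT libraries and 11844, 11218 and 11258 CPM in the 5C libraries. On average over the 6 libraries 35 members were above 100 CPM and 10 were below 1 CPM. The 6 most abundant members made up 40.7% of the sum. Replicates lay close together: over the 58 members that passed the filter on low counts, the median coefficient of variation between replicates was 7.10% in WT and 6.93% in 5C, beside 10.2% and 9.03% over all 16784 genes tested. The plot of levels by library shows this spread. These values were not compared at matched levels: 50 of the 58 members were above 20 CPM, against 8411 of the 16784 genes.

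**Figure D1:**
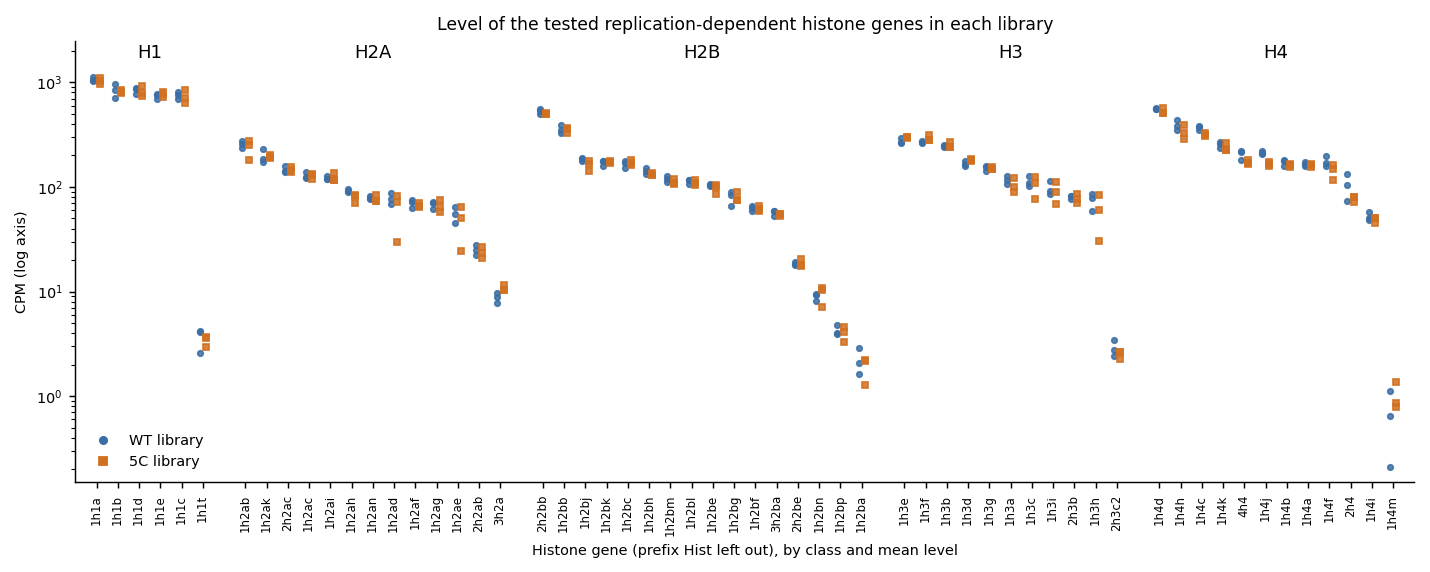
Level of each of the 58 tested members in CPM (log axis), grouped by histone class and ordered by mean level. Circles are the 3 WT libraries and squares the 3 5C libraries. The 5 somatic H1 genes lead at 629 to 1117 CPM, and the 5C squares of Hist1h2ad, Hist1h2ae and Hist1h3h include 1 far below the rest.

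In CPM, which takes no account of gene length, the somatic linker histone genes were the most abundant members. Per kb of coding sequence Hist1h4d, at 1757 CPM per kb, was above Hist1h1a at 1637. Per kb of exon Hist2h2bb, at 1358 CPM per kb, was above every linker gene but Hist1h1a. Hist1h1a was counted at 1045, 1117 and 1033 CPM in the WT libraries, against 1038, 973 and 1101 in the 5C libraries. Hist1h1b was at 847, 959 and 716 CPM in the WT libraries, against 816, 794 and 850 in the 5C libraries. Hist1h1c was at 757, 810 and 691 CPM in the WT libraries, against 852, 711 and 629 in the 5C libraries. The genotypes overlapped for each of these 3 genes. Per kb of exon these 3 genes led the class, at 1419, 1118 and 475 CPM per kb. That order depends on the length used, since the model of Hist1h1d spans 7425 exon bases: per kb of coding sequence Hist1h1d reached 1243 CPM per kb, above Hist1h1b at 1236 and Hist1h1c at 1161. Values per kb of coding sequence divide all counts of a gene by its coding length, so reads of its untranslated parts stay in them. Hist1h1t, the testis linker histone, was at 2.57 to 4.15 CPM in all libraries.

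In class H2A the 3 highest members per kb of exon were Hist1h2ab, Hist1h2ak and Hist1h2ai, at 519, 497 and 312 CPM per kb. Hist1h2ab was at 273, 258 and 238 CPM in the WT libraries, against 274, 250 and 181 in the 5C libraries. Hist1h2ak was at 229, 185 and 173 CPM in the WT libraries, against 189, 191 and 204 in the 5C libraries. Hist1h2ai was at 120, 127 and 120 CPM in the WT libraries, against 116, 116 and 137 in the 5C libraries. All 3 overlapped between genotypes. The lowest tested H2A member was Hist3h2a at 7.81 to 11.5 CPM, and Hist1h2aa, the testis H2A gene, did not pass the filter.

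In class H2B, Hist2h2bb led at 1358 CPM per kb of exon, followed by Hist1h2bb at 698 and Hist1h2bj at 372. Hist2h2bb was at 561, 500 and 530 CPM in the WT libraries, against 513, 498 and 501 in the 5C libraries. Its exons are covered to 59.3% by another gene model, Gm42743, on the same strand, so its reads may be split. They are also covered to 100% on the opposite strand, so its counts may hold antisense reads if strands were mixed. Hist1h2bb was at 393, 330 and 352 CPM in the WT libraries, against 364, 359 and 330 in the 5C libraries. Hist1h2ba, the testis H2B gene, was at 1.28 to 2.89 CPM.

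In class H3 the leading members per kb of exon were Hist1h3b, Hist1h3e and Hist1h3g, at 403, 343 and 285 CPM per kb. Hist1h3b was at 251, 242 and 249 CPM in the WT libraries, against 242, 243 and 271 in the 5C libraries. Hist1h3e was at 295, 269 and 266 CPM in the WT libraries, against 298, 291 and 302 in the 5C libraries. Hist1h3g was at 158, 154 and 143 CPM in the WT libraries, against 154, 147 and 148 in the 5C libraries. The 5C values of Hist1h3e lay at the top of the WT range, and the genotypes overlapped in all 3.

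In class H4 the leading members per kb of exon were Hist1h4k, Hist1h4h and Hist1h4d, at 786, 773 and 482 CPM per kb. Per kb of coding sequence, which has the same 312 bases in all 13 H4 models, Hist1h4d led at 1757 CPM per kb, ahead of Hist1h4h at 1165 and Hist1h4c at 1097. Reads outside the coding sequence are in these values too, and the model of Hist1h4d has 1138 exon bases against 312 for Hist1h4k. Hist1h4d was at 561, 567 and 561 CPM in the WT libraries, against 515, 513 and 571 in the 5C libraries. Hist1h4k was at 268, 234 and 257 CPM in the WT libraries, against 227, 225 and 260 in the 5C libraries. In both genes 5C replicates 1 and 2 were below every WT library and 5C replicate 3 was not.

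Reads that match several near-identical genes are lost or misplaced in gene-level counts, and this family is rich in such copies. A 40-base window, the length of the reads, was called unique when it stood in no GENCODE transcript of a gene elsewhere, on either strand. The median member had 48.5% unique windows, 17 members had under 20% and 12 had over 90%. Hist2h2aa2 shared all 489 of its windows with Hist2h2aa1, and Hist1h2bq shared 1971 of 2015 with Hist1h2br. The 9 members that did not pass the filter were Hist1h2aa, Hist1h2ao, Hist1h2ap, Hist2h2aa1, Hist2h2aa2, Hist1h2bq, Hist1h2br, Hist2h3c1 and Hist1h4n, all below 1 CPM in every library. Of these only Hist1h2aa (93.2% unique) and Hist2h3c1 (64.9% unique, but wholly covered by Gm20634 on the same strand) had over 20% unique windows, so for the other 7 a low count does not show a low level. Levels of Hist1h3h (5.91% unique), Hist1h2ah (9.02%), Hist1h3i (9.41%) and Hist1h2ai (9.61%) are uncertain for the same reason. So are those of Hist1h4m (9.92%), Hist1h2bn (12.3%), Hist1h2bl (13.2%), Hist1h2an (13.8%), Hist1h2af (16.9%) and Hist2h3b (19.8%), the other tested members under 20%.

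The comparison of 5C with WT asked whether the family was expressed differently in embryos with extra Mir483. Among the 58 members tested, 44 had a negative log2 fold change of 5C over WT (75.9%), beside 50.7% of all 16784 genes tested. The median log2 fold change was -0.06, beside -0.0024 over all genes, and single values ran from -0.44 (Hist2h4) to 0.74 (Hist1h4m, at 0.210 to 1.35 CPM). At an unadjusted p under 0.05, 7 members were lower in 5C (12.1% of those tested, beside 3.47% of all genes) and 0 were higher (beside 2.55%). Without WT replicate 1 there were 4 lower and 2 higher, beside 2.61% and 2.02% of all genes in that fit, and without WT replicate 2 there were 6 lower and 1 higher, beside 7.03% and 3.34%. In 5 members every 5C library was below every WT library, beside 5.10% of all genes, and in 3 members every 5C library was above every WT library, beside 6.26%. No member passed an adjusted p of 0.05 in edgeR's quasi-likelihood test with Benjamini-Hochberg adjustment, where 0% of all genes did. This departs from the study, which reported differentially expressed genes in these embryos with the same kind of test. The study also named histones among the proteins lower in 5C embryos, which is another measure than RNA. The smallest adjusted p of a member was 0.703, and DESeq2 passed 1 member (Hist1h4j). These are the values on which the family was taken up, so nothing is read from the shares.

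By class, the H1 genes summed to 4239 ± 311 CPM (SD, n = 3) in the WT libraries, against 4179 ± 212 CPM (SD, n = 3) in 5C. H2A was at 1324 ± 93.8 and 1258 ± 102 CPM, H2B at 2122 ± 120 and 2041 ± 75.9 CPM, and H3 at 1596 ± 80.5 and 1609 ± 57.8 CPM. In these 4 classes the libraries of the genotypes overlapped. H4 was at 2663 ± 127 CPM in WT and 2353 ± 74.3 CPM in 5C, a difference of -11.6%, and each 5C library was below each WT library. The median log2 fold change of the tested members was -0.04 in H1, -0.06 in H2A, -0.06 in H2B, -0.04 in H3 and -0.16 in H4. Without WT replicate 1 these medians were -0.03, -0.012, -2.9e-04, 0.01 and -0.16, and without replicate 2 of both genotypes they were 0.04, -0.04, -0.08, 0.0027 and -0.21. The H1, H2A and H3 medians thus took either sign over the left-out libraries, and the H4 median ran from -0.21 to -0.13. With GC-content offsets the H1 median was 0.01, and without the count filter the H4 median was -0.09. Of the 7 members at an unadjusted p under 0.05, 5 were H4 genes.

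**Figure D2:**
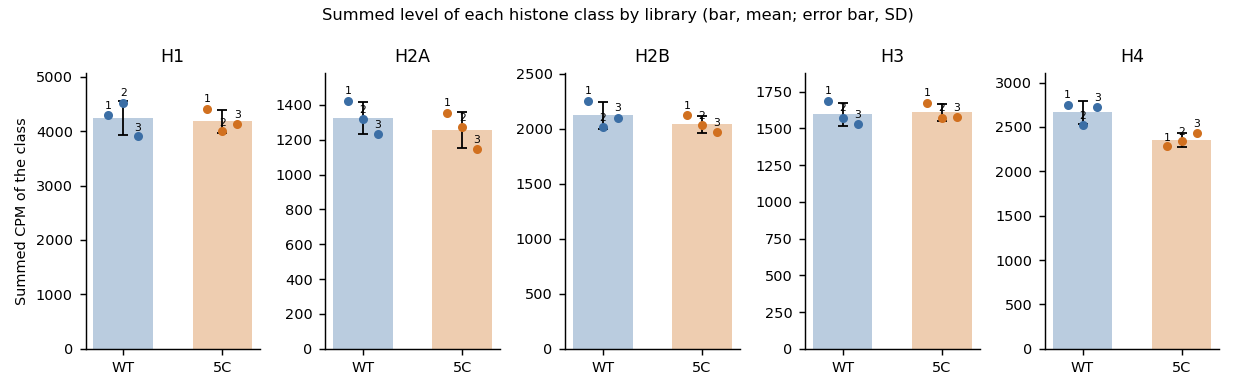
Summed CPM of the members of each histone class in each library, with bars from 0 at the mean of 3 libraries, error bars of 1 SD and the replicate number above each point. The H4 points of 5C (2282 to 2430 CPM) lie below those of WT (2517 to 2750 CPM), and the points of the other 4 classes overlap.

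The H4 sum was 2750, 2517 and 2721 CPM in the WT libraries, against 2282, 2345 and 2430 in the 5C libraries. On the log2 scale the ratio of 5C to WT was -0.18. It ran from -0.22 to -0.15 when each library was left out in turn, and was -0.22 without replicate 2 of both genotypes. Set against the summed level of H2A, H2B and H3 in the same library, the H4 sum was 0.513, 0.513 and 0.559 in WT and 0.443, 0.481 and 0.517 in 5C. On that relative scale 5C replicate 3 lay within the WT range, so the groups overlapped. Whether H4 differed from the other classes was not tested.

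**Figure D3:**
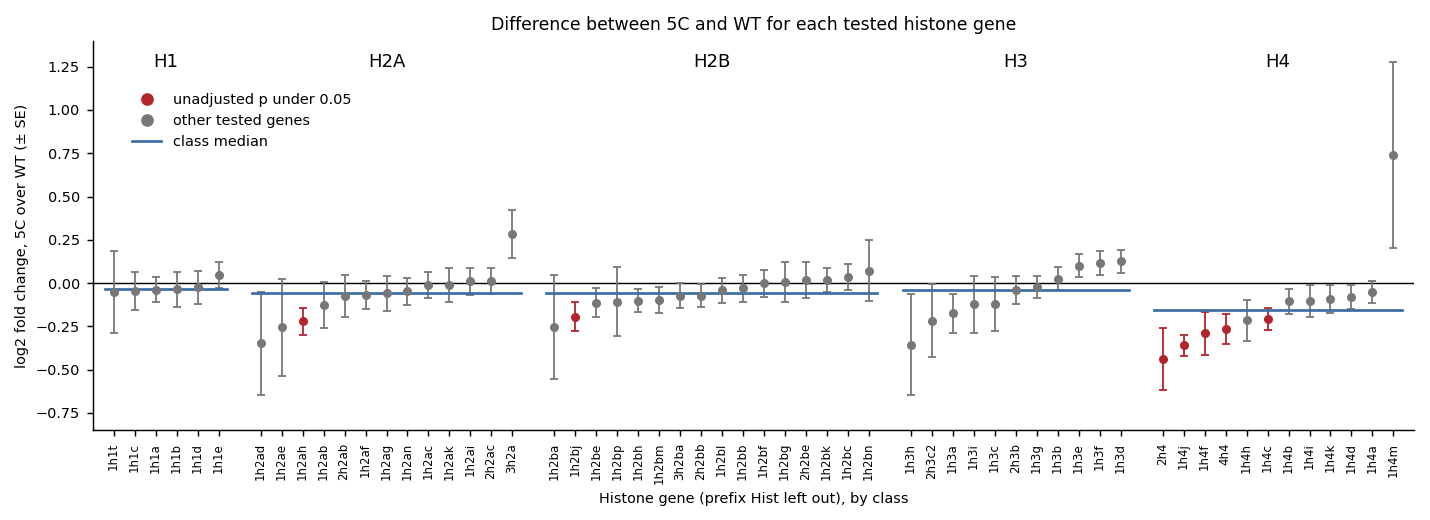
Log2 fold change of 5C over WT with its standard error (SE) for the 58 tested members, ordered within each class. Red points are the 7 members at an unadjusted p under 0.05 and the blue lines are the class medians. All 7 lie below 0 and 5 of them are H4 genes. The point of Hist1h4m at 0.74 has an SE of 0.54.

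Hist1h4j had the smallest p of the family. It was at 218, 208 and 211 CPM in the WT libraries, against 164, 173 and 159 in the 5C libraries, with no overlap and a wide gap between the groups. Its log2 fold change was -0.36 (SE 0.062, adjusted p = 0.703 by edgeR's quasi-likelihood test and 0.0037 by DESeq2). It stayed between -0.40 and -0.33 when each library was left out.

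Hist1h4c was at 378, 347 and 375 CPM in the WT libraries, against 308, 329 and 316 in the 5C libraries, again without overlap. Its log2 fold change was -0.21 (SE 0.065). Hist4h4, the single gene on chromosome 6, was at 221, 181 and 218 CPM in the WT libraries, against 165, 180 and 170 in the 5C libraries. Its groups did not overlap, but WT replicate 2 lay only just above the highest 5C library. Its log2 fold change was -0.27 (SE 0.085). Hist1h4j, Hist1h4c and Hist4h4 kept an unadjusted p under 0.05 in all 6 fits that left out a library.

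Hist2h4 was at 134, 72.7 and 104 CPM in the WT libraries, against 79.6, 79.6 and 71.1 in the 5C libraries. The groups overlapped through WT replicate 2, and the log2 fold change of -0.44 (SE 0.18) ran from -0.64 to -0.19 with a library left out and was -0.67 without replicate 2 of both genotypes. Hist1h4f was at 196, 169 and 159 CPM in the WT libraries, against 163, 150 and 116 in the 5C libraries. Its groups overlapped through 5C replicate 1, and its log2 fold change of -0.29 (SE 0.12) ran from -0.39 to -0.16. In the fits that left out a library, Hist2h4 stayed under 0.05 in 1 of 6, that without WT replicate 2, and Hist1h4f in 2 of 6, those without WT replicate 3 or 5C replicate 1. Hist1h4h was at 382, 354 and 436 CPM in the WT libraries, against 290, 325 and 395 in the 5C libraries, a log2 fold change of -0.21 (SE 0.12) with overlap. It ran from -0.35 without 5C replicate 3 to -0.12 without 5C replicate 1. Of the other 6 tested H4 genes, 5 had log2 fold changes of -0.11 to -0.05 and Hist1h4m had the high value given above.

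Of the 5 H4 genes at an unadjusted p under 0.05, Hist1h4c, Hist1h4f and Hist4h4 have the same stem-loop letters, and Hist1h4j and Hist2h4 have others. All of them but Hist1h4f have models that run over 150 bases past the stem-loop. Hist1h4j and Hist1h4b have the same stem-loop letters and log2 fold changes of -0.36 and -0.11, and Hist2h4 and Hist1h4i share theirs and were at -0.44 and -0.11. The 6 H4 models that run over 150 bases past the stem-loop all had negative log2 fold changes, with a median of -0.24. Of the 4 tested H4 models with a shorter end 3 were negative, with a median of -0.16. The 2 tested H4 models with no stem-loop match had a median of -0.07. Outside H4 the 15 tested long models had a median of -0.03 and the 13 tested short ones a median of -0.10. The part of the stem-loop or of the model's end in the fold changes was not tested.

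Of 4 tested RNAs that lack an ordinary poly(A) tail, Rpph1 and Rn7sk ordered the libraries much as the H4 sum did and Malat1 and Vaultrc5 did not. Rpph1, the RNA of RNase P, was at 1785, 1481 and 1503 CPM in the WT libraries, against 1124, 1253 and 1351 in the 5C libraries, without overlap, at a log2 fold change of -0.36 (SE 0.096, adjusted p = 0.781 by edgeR's quasi-likelihood test). Rn7sk, the 7SK RNA, was at 14570, 10143 and 12966 CPM in the WT libraries, against 9171, 10906 and 11661 in the 5C libraries, so WT replicate 2 lay among the 5C libraries. In Rpph1, Rn7sk and the H4 sum alike, WT replicate 1 was the highest library, 5C replicate 1 was the lowest, and WT replicate 2 was the lowest of WT. Malat1, whose end is a triple helix, was at 3529 to 3816 CPM in WT and at 2925 to 3913 CPM in 5C. Vaultrc5, a vault RNA, was at 5.04, 7.90 and 3.03 CPM in the WT libraries, against 5.09, 9.39 and 7.12 in the 5C libraries, a log2 fold change of 0.39 (SE 0.32). Of the 9 such RNAs listed, 8 were found and 4 tested, 3 of them with negative log2 fold changes (median -0.17). Rn7s1, Terc and Rnu7 were at 0 counts in all libraries. How much RNA without a tail passed the poly(A) selection in each library, and its part in the H4 values, was not tested.

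**Figure D4:**
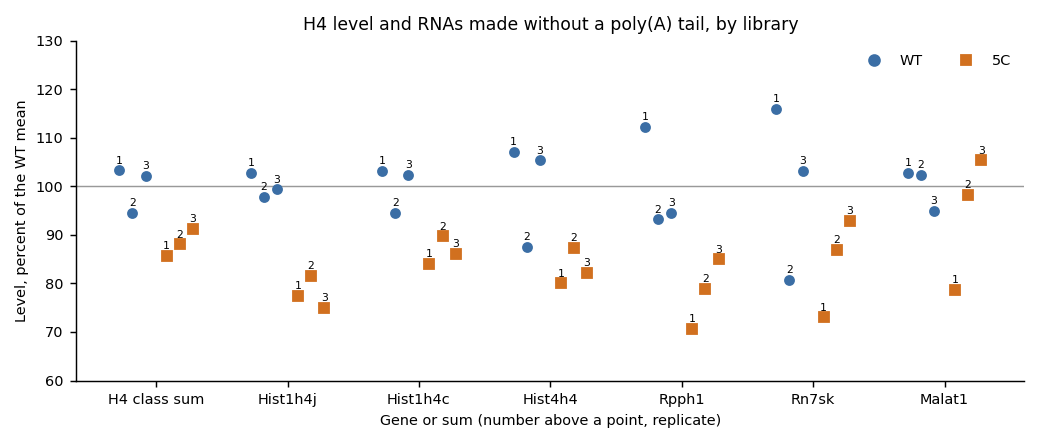
Level in each library as a percent of the WT mean, for the H4 class sum, the 3 H4 genes whose groups do not overlap and 3 RNAs made without an ordinary poly(A) tail. Circles are WT, squares 5C, and the number above a point is the replicate. The H4 sum and Rpph1 separate the genotypes, and Rn7sk has WT replicate 2 among the 5C libraries.

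Outside H4, 2 members were among the 7. Hist1h2ah was at 90.3, 95.3 and 90.6 CPM in the WT libraries, against 83.4, 82.7 and 70.8 in the 5C libraries, at a log2 fold change of -0.22 (SE 0.080). Hist1h2bj was at 191, 178 and 183 CPM in the WT libraries, against 175, 165 and 142 in the 5C libraries, at a log2 fold change of -0.19 (SE 0.083). Neither gene overlapped between genotypes. Hist1h2ah lost an unadjusted p under 0.05 without WT replicate 2 (-0.15 to -0.26 over the left-out libraries) and without 5C replicate 3, and Hist1h2bj lost it without WT replicates 1 or 3 or 5C replicates 2 or 3 (-0.11 to -0.26).

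The 3 tested members whose 5C libraries were all above WT were Hist3h2a, Hist1h3d and Hist1h3f. Hist3h2a was at 9.65, 7.81 and 8.77 CPM in the WT libraries, against 10.3, 11.5 and 10.3 in the 5C libraries, a log2 fold change of 0.28 (SE 0.14) that was 0.15 without replicate 2 of both genotypes. Its exons are covered to 33.0% by Trim17 on the same strand. Hist1h3d was at 178, 159 and 164 CPM in the WT libraries, against 179, 182 and 186 in the 5C libraries, a log2 fold change of 0.13 (SE 0.065), with 5C replicate 1 just above WT replicate 1. Hist1h4n, which did not pass the filter, was also above WT in every 5C library, at 0.086 to 0.319 and 0.364 to 0.598 CPM. Hist1h3f was at 266, 271 and 274 CPM in the WT libraries, against 284, 278 and 317 in the 5C libraries.

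Many H2A and H2B genes stand head to head and share the region between their starts. There were 13 such pairs of neighbouring members with under 1000 bases between them. The 12 of H2A with H2B had gaps of 175 to 305 bases. The other, Hist1h2bh with Hist1h3f, pairs H2B with H3 at a gap of 659 bases. The octamer ATTTGCAT, searched on both strands in the window from 250 bases before to 50 after each start (RefSeq, GRCm38), was present in 38.9% of H2A and 41.2% of H2B windows and in 0% of H1, H3 and H4 windows, beside 1.74% of all 32851 windows. The CCAAT letters were in 100% of H1, H2A, H2B and H3 windows and in 25% of H4 windows, beside 37.4% of all. TATAAA was in 55.6% of the members' windows, beside 13.6% of all. AAACACA, known from H1 promoters, was in 83.3% of H1 windows, beside 7.18% of all. Windows of a head-to-head pair overlap, so 1 octamer can count for both genes. The following stretches are shown because each lies in the shared region of such a pair, read on the plus strand with the octamer in capitals.
Hist1h2ah and Hist1h2bk (chr13:22035780-22035809): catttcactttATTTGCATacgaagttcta
Hist1h2ae and Hist1h2bg (chr13:23571330-23571359): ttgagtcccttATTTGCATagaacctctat
Hist1h2aa and Hist1h2ba (chr13:23934302-23934331): gtgctgggtgcATGCAAATaaggggaattc

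Genes that share such a region were not at equal levels. Per kb of coding sequence Hist2h2ac was at 374 CPM per kb and its neighbour Hist2h2be at 48.5. Hist1h2ak was at 497 CPM per kb beside Hist1h2bn at 24.1, and Hist1h2an at 199 beside Hist1h2bp at 9.90, where Hist1h2bn has 12.3% unique windows. Hist1h2bf and Hist1h2ad were close, at 164 and 177 CPM per kb. All counts of a gene entered these values, those outside the coding sequence included.

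In 5C replicate 3 a few members were low while the gene across the shared region was not. Hist1h2ad was at 88.0, 77.2 and 68.0 CPM in the WT libraries, against 82.2, 72.2 and 29.5 in the 5C libraries, so 5C replicate 3 held 38.2% of the mean of the other 5C libraries. Its neighbour Hist1h2bf held 92.5%. Hist1h2ae was at 63.7, 55.6 and 45.1 CPM in the WT libraries, against 63.6, 50.5 and 24.5 in the 5C libraries, which is 42.9% in replicate 3, and its neighbour Hist1h2bg held 91.7%. Hist1h3h, far from both on chromosome 13, was at 85.6, 78.0 and 58.6 CPM in the WT libraries, against 83.3, 60.6 and 30.5 in the 5C libraries, or 42.4%. Of the 50 members above 20 CPM, these 3 were under 60% of the other libraries of their genotype in 5C replicate 3, beside 0.250% of the 8411 genes above 20 CPM. In each of the other 5 libraries no member was. Hist1h3c, Hist1h3i and Hist1h2ab came next in 5C replicate 3, at 66.1, 68.1 and 69.1%. Hist1h3h, Hist1h2ae and Hist1h2ad were at 71.6, 75.7 and 82.3% in WT replicate 3 and 125, 127 and 121% in WT replicate 1. Other members did likewise, among them Hist1h3i at 83.6 and 129% and the neighbour Hist1h2bg at 76.1 and 120%. Each of these WT percents is set against a mean that holds the other library, so they are linked. In 5C replicate 1 Hist1h3h, Hist1h2ae and Hist1h2ad were at 183, 170 and 162%, against a mean that holds 5C replicate 3. These 3 genes were picked after their values were seen. Hist1h2ai, which shares 299 of its windows with Hist1h2ad, was at 118% in 5C replicate 3.

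**Figure D5:**
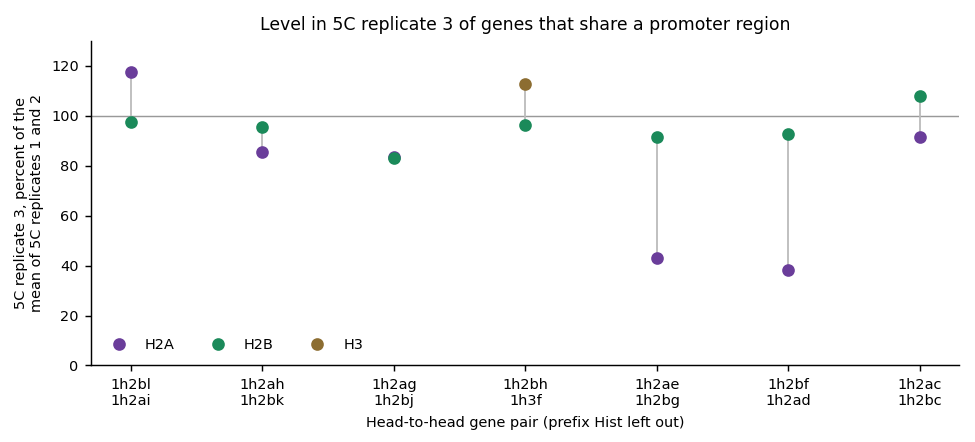
Level in 5C replicate 3 as a percent of the mean of 5C replicates 1 and 2, for the 7 head-to-head pairs with both genes above 20 CPM, with a line joining the genes of a pair and colour marking the class. The H2A genes Hist1h2ae and Hist1h2ad lie at 42.9% and 38.2% and their H2B neighbours at 91.7% and 92.5%.

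The replication-independent histone variants, whose mRNAs are typically polyadenylated, were compared in the same fit. Of 11 variant genes tested 2 had negative log2 fold changes (beside 50.7% of all genes), with a median of 0.02, and 0 passed an unadjusted p under 0.05. Without WT replicate 3 the number negative was 5 (median 0.0019), and without WT replicate 1 it was 4 (median 0.025). H1f0, the replacement linker histone, was at 415, 444 and 412 CPM in the WT libraries, against 463, 411 and 452 in the 5C libraries. H2afy, which encodes macroH2A1, was at 405, 441 and 400 CPM in the WT libraries, against 441, 424 and 419 in the 5C libraries. Both overlapped between genotypes.

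Factors that make the histone mRNA end or form the histone locus body numbered 14, of which 6 had negative log2 fold changes (median 0.02) and 0 passed an unadjusted p under 0.05. Without WT replicate 1 the number negative was 8 (median -0.017). Slbp, the stem-loop binding protein, was at 125, 149 and 130 CPM in the WT libraries, against 134, 139 and 140 in the 5C libraries. Npat, the coactivator of histone transcription, was at 113, 117 and 119 CPM in the WT libraries, against 119, 125 and 131 in the 5C libraries, at a log2 fold change of 0.10 (SE 0.065). Casp8ap2, a histone locus body protein, had a log2 fold change of 0.14 (SE 0.065) and every 5C library above WT, at 237 to 259 CPM in WT and 263 to 286 CPM in 5C. With GC-content offsets Casp8ap2 was at 0.06 and Npat at 0.017. Srrt, a partner of the cap-binding complex, was at -0.03 (SE 0.062).

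Of 8 genes of histone mRNA decay 2 had negative values (median 0.05) and 0 passed. Without WT replicate 1 the number negative was 4 (median 0.020). The 2 most abundant were the decapping enzyme Dcp2, at a log2 fold change of 0.11 (SE 0.070), and the uridylyl transferase Tut4, at 0.13 (SE 0.063). With GC-content offsets they were at 0.046 and 0.061. Of 14 histone chaperones 8 had negative values (median -0.0080) and 0 passed. The H3-H4 and H1 chaperone Nasp was at 892, 1078 and 875 CPM in the WT libraries, against 880, 945 and 1069 in the 5C libraries, and Rbbp4 was at 548 to 600 CPM in WT and 567 to 571 CPM in 5C.

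Of 27 genes of DNA replication and S phase 18 had negative values (median -0.04), beside 50.7% of all genes. Without WT replicate 2 this median was 0.0047, and without replicate 2 of both genotypes it was 0.028. At an unadjusted p under 0.05, 2 were lower in 5C, beside 3.47% of all genes, and 0 were higher, beside 2.55%, and 0 passed the adjusted threshold. The helicase subunit Mcm5 was at 402, 463 and 438 CPM in the WT libraries, against 420, 344 and 344 in the 5C libraries, at a log2 fold change of -0.23 (SE 0.093). Cyclin E1 (Ccne1) was at 91.0, 107 and 90.3 CPM in the WT libraries, against 80.7, 84.4 and 87.5 in the 5C libraries, at -0.19 (SE 0.083). The groups overlapped for Mcm5 and not for Ccne1. Mcm5 lost an unadjusted p under 0.05 without WT replicates 2 or 3 or 5C replicates 2 or 3, and Ccne1 lost it without WT replicate 2 or 5C replicates 1 or 2.

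Marker genes of cell types that the pools could hold in unequal amounts were counted alongside. All 8 yolk sac endoderm markers had negative values (median -2.24) and 1 passed an unadjusted p under 0.05, Amn, an endocytic coreceptor of that tissue, at 10.8, 0.515 and 0.798 CPM in the WT libraries, against 0.485, 0.171 and 1.99 in the 5C libraries. Of 6 decidua and trophoblast markers 4 were tested, and 0 had negative values (median 1.45). The granzyme gene Gzmg passed an unadjusted p under 0.05, at 0.315 to 0.957 CPM in WT and 0.683 to 6.12 CPM in 5C. Prl8a2 was at 5.07 to 43.4 CPM in WT and 8.96 to 31.8 CPM in 5C, at a log2 fold change of 0.38 (SE 0.69). Tpbpa, which did not pass the filter, was at 0.734 CPM in WT and 0.223 CPM in 5C on average. Without WT replicate 1 the 7 yolk sac markers still tested all had positive values (median 0.81), and Amn did not pass the filter on low counts, so the negative values rest on that library. Without 5C replicate 3 the median of the 7 tested was -5.23. Amn also lost its unadjusted p under 0.05 without 5C replicates 1 or 2, and Gzmg lost its own without WT replicate 1 or 5C replicate 3. The summed primitive erythroid markers were at 9012 to 12339 CPM in WT and 8217 to 16064 CPM in 5C, led by Hbb-y at 5434 to 6906 and 4764 to 9330 CPM and Hbb-bh1 at 2869 to 3826 and 2557 to 4750 CPM. Of 6 markers of the embryo proper 2 had negative values (median 0.09). At an unadjusted p under 0.05, 1 was lower in 5C (beside 3.47% of all genes) and 1 higher (beside 2.55%), and 0 passed the adjusted threshold. The lower one, the heart myosin gene Myh6, was at 61.1, 86.5 and 72.3 CPM in the WT libraries, against 48.9, 39.2 and 33.1 in the 5C libraries. The higher one, the neural gene Sox2, was at 74.2, 84.9 and 75.1 CPM in the WT libraries, against 89.4, 92.6 and 95.9 in the 5C libraries. Nkx2-5, also a heart gene, had a log2 fold change of -0.06 (SE 0.36) with overlap. Embryo markers were thus detected in every library. The part of cell makeup in the histone values was not tested.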

How the data were processed

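RNA of whole embryos was sequenced as single 40-base reads from stranded, poly(A)-selected libraries. Per the study's methods, the authors aligned reads to GRCm38 with STAR and deposited raw counts per gene. Which strand column was taken is not given in the sources used here, so sense and antisense reads may be mixed where genes overlap. Counts of multi-mapping reads are not part of such tables. Symbols, exon lengths and transcripts came from GENCODE vM21 (GRCm38), which held 55141 of the 55401 identifiers, and promoter windows came from RefSeq.

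Counts were filtered on low values (filterByExpr) and TMM-scaled, and 5C was compared with WT over all 16784 genes left by edgeR's quasi-likelihood F-test (edgeR 4.0.16, R 4.3.3, two-sided, Benjamini-Hochberg adjustment). CPM are counts per 1000000 of the scaled totals, and 3 counts corresponded to 0.157 to 0.479 CPM. Standard errors come from this fit, SDs are between libraries, and the CPM of 3 counts reflects counting error only. The pools are separate samples by their labels, so p-values measure the spread between pools. Same-numbered libraries were not treated as pairs in the main fit. The script was tested on simulated counts.

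Named genes were, per class, the 3 with the highest CPM per kb of exon, the 10 members with the smallest unadjusted p, Mir483, up to 3 genes per other list at an unadjusted p under 0.05 (or its 2 most abundant), Slbp and Npat. Members and lists were chosen with earlier results of these data known. Alternatives were other scalings, no filter, DESeq2 1.42.0, limma-voom (limma 3.58.1), a replicate block, GC-content offsets and left-out libraries.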

Additional observations from a re-analysis of the deposited data

How the results depend on the processing

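The median log2 fold change of the tested members stayed negative in the other 8 fits run over all libraries and in those that left out libraries (-0.10 to -0.03 with each library left out), and the H4 sum, computed only for the other 2 scalings and the left-out libraries, ran from -0.22 to -0.15. The count at an unadjusted p under 0.05 was 11 without the count filter (6.55% of all genes in that fit, beside 6.02% over the filtered genes) and 4 to 8 with a library left out, 4 without 5C replicate 2 or without 5C replicate 3, and at an adjusted p under 0.05 it was 4 without the filter (Hist1h4j, Hist2h4, Hist1h2ad and Hist1h3h, beside 1.26% of all genes), 1 by DESeq2 (beside 0.125%) and 0 to 0 with a library left out. For H4 it was 3 to 6, 3 without WT replicate 1 or 5C replicate 2. With GC-content offsets the count was 8, of which 2 were higher in 5C (beside 5.05% of all genes in both directions). The cause was not tested. The H4 sums and counts, the medians of the other lists and the shares of all genes under the alternatives were added after seeing the data. The total count of WT replicate 3 limits its low members most. Litters are not labelled, so whether same-numbered libraries are paired is not known. Correlations of their deviations were -0.17, 0.20 and -0.17 for replicates 1, 2 and 3, and do not settle it. With the replicate block 10 members were at an unadjusted p under 0.05 (beside 4.66% of all genes) and 0 passed the adjusted threshold.

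Of 643 values of named genes under an alternative, 581 kept direction and side of the adjusted threshold, 12 passed it only under the alternative and 50 changed direction. With GC-content offsets, and then with the replicate block as well, Hist1h1a was at 0.017 and 0.016, Hist1h1b at 0.024 and 0.033, Hist1h1c at 0.0089 and 0.0057, Hist1h2ai at -0.028 and -0.038, Hist1h2bb at 0.031 and 0.032, Hist1h3g at 0.013 and 0.013, Srrt at 0.030 and 0.028, Nasp at -0.072 and -0.067, and Slbp at -0.0049 and -0.0015. With library size alone, and without the filter, Hist1h2ak was at 0.0038 and 6.8e-04 and Rbbp4 at 0.0063 and 0.0031. Without replicate 2 of both genotypes Hist1h1a was at 0.042, Hist1h1b at 0.092, Hist1h1c at 0.030, Hist1h3g at 0.0027, Srrt at 0.014 and Rbbp4 at 0.026. With each library left out the range was -0.083 to 0.0018 for Hist1h1a, -0.14 to 0.070 for Hist1h1b, -0.17 to 0.053 for Hist1h1c, -0.25 to 0.031 for Hist1h2ab, -0.099 to 0.12 for Hist1h2ak, -0.072 to 0.051 for Hist1h2ai, -0.086 to 0.043 for Hist1h2bb, -0.029 to 0.055 for Hist1h3b, -0.068 to 0.011 for Hist1h3g, -0.055 to 0.13 for Nasp, -0.049 to 0.024 for Rbbp4, -0.17 to 0.33 for Hbb-y, -0.22 to 0.25 for Hbb-bh1 and -0.019 to 0.12 for Slbp.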

Other observations

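The histone pseudogene Hist3h2bb-ps, which the choice of protein-coding members leaves out, was at 22.5, 23.0 and 20.4 CPM in the WT libraries, against 22.9, 20.6 and 20.6 in the 5C libraries, above 17 members of the family that were lower on average.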
